A study of Homo sapiens with 2 samples.

Results

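Teneurins TENM2 and TENM3, the vesicle-priming gene UNC13C, the synaptic leucine-rich repeat gene LRRTM4 and the neural cell adhesion gene NCAM1 are 5 of the 36601 genes counted in this series, taken by their symbols. They were proposed as long genes with large differences, or differences bound to clusters of cells, between or within the libraries. Their levels, ratios and dependence on the nuclear RNA MALAT1 had therefore been seen beforehand, and the values here describe them without a test. All 5 were at or above 20 UMIs per 1000000 (UPM) in at least 1 library, a level reached by 6781 genes.

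HT1080 is an established human fibrosarcoma line, labelled wild type in both groups. In both groups spheroids of 2000 cells, about 50 per sample, sat in 500 µl of collagen for 72 h. The control culture is labelled only as control, and no control antibody is named for it. The 4B4 culture had 2 µg/ml of the antibody 4B4, which blocks β1 integrin, in its medium. Each group is 1 library, so a difference between them has no replicate check, and antibody and library cannot be told apart.

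Teneurins are large single-pass membrane proteins that dimerise and bind latrophilins and other teneurins across cell contacts, and in the brain they guide the matching of synaptic partners. LRRTM4 sits on the postsynaptic side and binds heparan sulfate proteoglycans and neurexins. UNC13 proteins prime vesicles for fusion, with UNC13C best known from the cerebellum. NCAM1 is an immunoglobulin-type adhesion protein that binds itself on the neighbouring cell and also meets FGF receptors. MALAT1 is a long noncoding RNA kept in the nucleus, so its share of a cell's UMIs is often read as the weight of nuclear RNA in that cell. These genes are known for nervous tissue, and the labelled cell type here is fibrosarcoma.

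The libraries were checked against marker lists. Of 12 mesenchymal or fibrosarcoma markers, 11 reached 5 UPM, and VIM, which encodes vimentin, was at 1830 UPM in the control and 1392 UPM in the 4B4 library. Of 15 neuron markers 4 reached 5 UPM (TUBB3, MAP2, SYT1 and SNAP25) and 9 were under 1 UPM in both libraries, among them RBFOX3, STMN2, DCX and NEFM. Their summed level was 237 UPM in the control and 261 UPM in the 4B4 library, most of it from TUBB3, and NEFM had no UMI in either. Of epithelial, immune and endothelial markers, CLDN4, CD68 and PECAM1 reached 5 UPM. Kept cells, those with 1000 or more genes and no more than 20% mitochondrial UMIs, numbered 3402 in the control and 1385 in the 4B4 library, with medians of 32914 and 68556 UMIs per cell. The libraries shared 2 barcodes.

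The members are long genes. On GRCh38, with GENCODE release 29, TENM2 (ENSG00000145934) lies on chromosome 5 from 167284799 to 168264157 on the plus strand and spans 979 kb. TENM3 (ENSG00000218336) lies on chromosome 4 from 182143987 to 182803024, plus strand, and spans 659 kb. UNC13C (ENSG00000137766) lies on chromosome 15 from 53978201 to 54633414, plus strand, and spans 655 kb. LRRTM4 (ENSG00000176204) lies on chromosome 2 from 76747719 to 77593319 on the minus strand and spans 846 kb. NCAM1 (ENSG00000149294) lies on chromosome 11 from 112961247 to 113278436, plus strand, and spans 317 kb. The median span of genes at 20 UPM or more was 38.3 kb, and 28 of them were longer than TENM2. Exons of the longest coding transcript cover 0.963% of TENM2, 1.65% of TENM3, 1.98% of UNC13C, 0.428% of LRRTM4 and 1.91% of NCAM1. LRRTM4 has 3 exons in that transcript, and the 2 teneurins have 28 each. The counts are totals for a gene and cannot be placed in its exons, introns or UTRs, and whether intronic reads were counted is not given in the sources used here.

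RefSeq promoter windows (GRCh38.p14, 250 bases before to 50 after a transcription start) were found for 3 of the 5 members, TENM2, TENM3 and UNC13C. They are shown because these 3 genes cover the range of differences described next, from the member lowest to the member highest in the 4B4 library relative to the control. Capitals mark CG pairs.
TENM2, chr5:167072992-167073291, plus strand: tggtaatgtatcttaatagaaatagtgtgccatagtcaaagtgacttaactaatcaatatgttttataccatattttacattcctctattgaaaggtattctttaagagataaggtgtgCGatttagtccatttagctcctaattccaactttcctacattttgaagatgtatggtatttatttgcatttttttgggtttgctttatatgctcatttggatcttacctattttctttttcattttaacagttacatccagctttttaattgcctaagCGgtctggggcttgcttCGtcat
TENM2, chr5:167754679-167754978, plus strand: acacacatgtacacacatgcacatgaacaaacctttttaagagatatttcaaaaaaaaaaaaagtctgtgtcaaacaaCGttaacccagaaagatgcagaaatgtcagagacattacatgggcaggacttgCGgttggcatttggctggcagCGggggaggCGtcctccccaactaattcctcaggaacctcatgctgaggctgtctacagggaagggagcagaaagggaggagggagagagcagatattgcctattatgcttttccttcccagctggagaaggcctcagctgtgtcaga
TENM3, chr4:182143713-182144012, plus strand: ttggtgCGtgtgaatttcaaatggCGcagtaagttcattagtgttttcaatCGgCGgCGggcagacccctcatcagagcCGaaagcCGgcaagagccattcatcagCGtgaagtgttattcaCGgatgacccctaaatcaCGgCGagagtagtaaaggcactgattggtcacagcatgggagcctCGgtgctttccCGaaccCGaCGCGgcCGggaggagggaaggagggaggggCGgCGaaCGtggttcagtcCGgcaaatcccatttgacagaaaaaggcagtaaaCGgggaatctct
UNC13C, chr15:53978191-53978490, plus strand: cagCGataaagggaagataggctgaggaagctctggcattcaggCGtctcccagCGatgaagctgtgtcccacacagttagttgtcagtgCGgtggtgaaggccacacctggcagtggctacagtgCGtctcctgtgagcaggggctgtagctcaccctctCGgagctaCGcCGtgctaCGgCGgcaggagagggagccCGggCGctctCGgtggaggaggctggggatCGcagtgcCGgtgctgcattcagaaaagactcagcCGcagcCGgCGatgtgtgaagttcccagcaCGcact
The TENM2 windows hold 3 and 4 CG pairs, the TENM3 window shown 22 and the UNC13C window 19, against a median of 14 over 35116 windows. A second TENM3 window, chr4:182448766-182449065, is not printed and holds 39 CG pairs, more than 91.3% of all windows. The letters GGAATG, the core bound by TEAD factors, were searched on both strands. They occur once in these 5 windows, on the minus strand in the first TENM2 window, 172 bases before its start, and in 14.0% of all windows. The AP-1 letters TGANTCA occur in none of the 5 windows and in 7.71% of all. The first TENM2 window lies upstream of the GENCODE 29 span given above, and the second lies inside it. A match is a description of the letters, and UMIs from the 3′ end do not tell which start was used.

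TENM2 was the third lowest of 6781 genes by its ratio of 4B4 over control, and UNC13C the second highest. At a threshold of 2-fold, 1 of the 5 members (UNC13C) was higher and 1 (TENM2) lower under the antibody. Across the 6781 genes this threshold was passed upward by 0.324% and downward by 1.68%, and since the members were picked on this contrast nothing is read from their count. Levels below are UMIs summed over kept cells and scaled to 1000000, with exact 95% Poisson intervals that cover counting error only. They were not divided by gene length and are not compared between genes.

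TENM2 was at 100.3 UPM (98.6 to 102) in control cells, from 12760 UMIs, and at 25.9 UPM (25.0 to 26.8) in the 4B4 library, from 3014 UMIs. Its log2 ratio was -1.95 (-2.01 to -1.90), a 3.88-fold lower level under the antibody. TENM3, its paralogue, was at 106 UPM (104 to 108) and 84.9 UPM (83.3 to 86.6), a log2 ratio of -0.32 (-0.36 to -0.28). The paralogues were thus far apart in ratio while both were lower in the 4B4 library.

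UNC13C was at 6.40 UPM (5.97 to 6.85) in control cells, from 814 UMIs, and at 31.1 UPM (30.05 to 32.1) in the 4B4 library, from 3616 UMIs. Its log2 ratio was 2.28 (2.17 to 2.39), a 4.85-fold higher level. LRRTM4 was at 26.3 UPM (25.4 to 27.2) and 41.0 UPM (39.8 to 42.1), a log2 ratio of 0.64 (0.58 to 0.71). NCAM1 was at 31.0 UPM (30.01 to 31.95) and 22.9 UPM (22.1 to 23.8), a log2 ratio of -0.43 (-0.51 to -0.36). These intervals narrow as UMIs add up, and with 1 library each they say nothing about variation between cultures.

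Shares of cells were compared after thinning each cell to 17000 UMIs, since 4B4 cells were deeper. This left 3099 control and 1311 4B4 cells and dropped 303 and 74 as too shallow. TENM2 had at least 1 UMI in 55.7% (53.9% to 57.4%) of the control and 24.6% (22.3% to 27.0%) of the 4B4 cells. UNC13C had one in 7.62% (6.71% to 8.61%) and 24.2% (21.9% to 26.6%). Without thinning these shares were 65.8% and 49.3% for TENM2, and 13.1% and 48.5% for UNC13C. TENM2 was thus found in fewer 4B4 cells and UNC13C in more, at equal depth and without thinning.

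TENM3, the most widely detected member, had a UMI in 70.2% of thinned control cells (68.6% to 71.9%) and 58.7% of thinned 4B4 cells (56.0% to 61.4%). Unthinned, the order of the libraries turned, with 80.5% and 83.4%. NCAM1 turned in the same way, with 33.6% (31.9% to 35.3%) and 28.0% (25.6% to 30.5%) after thinning and 50.3% and 59.6% without. LRRTM4 was found in 22.2% (20.7% to 23.7%) and 26.5% (24.1% to 28.9%) of thinned cells and in 32.1% and 47.1% without thinning. Both cultures are 1 cell line, so no cell type that lacks these genes gives a background share for free RNA.

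The members were uneven between cells at this equal depth. Cells with 6 or more TENM2 UMIs made up 7.97% of the control library and 1.37% of the 4B4 library. For UNC13C these shares were 0.0645% (2 cells) and 2.06% (27 cells), and for LRRTM4 0.936% and 3.28%. The variance of LRRTM4 counts over cells was 3.50 times their mean in the control and 6.50 times in the 4B4 library. It exceeded that of 99.6% and 99.5% of the genes with a like thinned mean level, whose median ratios were 1.14 and 1.23. For TENM2 the variance was 4.09 and 3.26 times the mean, and for UNC13C 1.76 and 4.33 times. NCAM1 had the lowest such ratio of the members in the 4B4 library, 1.85, and had 1.81 in the control library. TENM3 had 2.30 in the control and 3.34 in the 4B4 library. The members differ in mean level, so each was also set against genes of like level. In the control and 4B4 libraries NCAM1 exceeded 94.2% and 90.8% of these, and TENM3 87.2% and 91.9%. For TENM2 these shares were 97.7% and 98.2%, and for UNC13C 97.2% and 98.8%. NCAM1 was thus also uneven for its level.

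**Figure D1:**
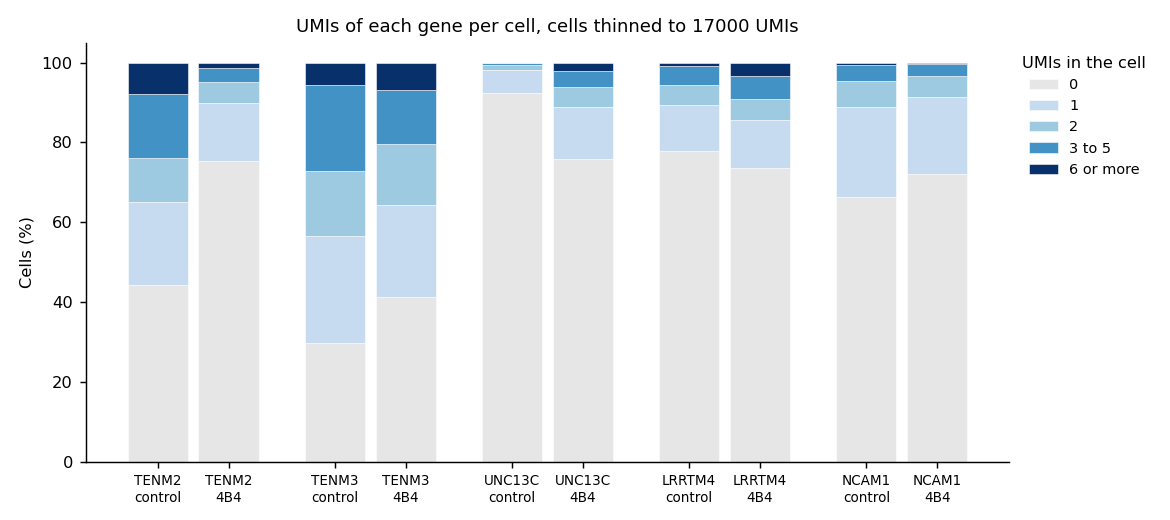
Share of cells (y axis, percent) by the number of UMIs of each gene in a cell, for both libraries, after thinning every cell to 17000 UMIs (3099 control and 1311 4B4 cells). Cells without TENM2 went from 44.3% in the control to 75.4% in the 4B4 library, and cells without UNC13C from 92.4% to 75.8%.

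The cells richest in a member were left out in turn, to see how far a few cells set these ratios. The 1% of cells richest in TENM2 held 10.8% of its UMIs in the control and 19.8% in the 4B4 library, and for UNC13C they held 27.6% and 16.1%. Without those cells the log2 ratio was -2.11 for TENM2 and 2.49 for UNC13C. For LRRTM4 the richest 1% held 19.2% and 20.2%, and its ratio without them was 0.62.

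MALAT1 itself took nearly the same part of each library, 12147 UPM in the control and 12606 UPM in the 4B4 library, but its share varied widely between cells. Per cell, the median share was 0.796% under control conditions and 0.821% under the antibody, and from the 10th to the 90th percentile it ran from 0.0419% to 3.35% and from 0.0232% to 4.36%. Cells of each library were ranked by this share and split into 5 classes of equal size, called class 1 (least MALAT1) to class 5 (most MALAT1), with 680 or 681 control and 277 4B4 cells each. Median depth in class 1 and class 5 was 32825 and 28347 UMIs in the control and 71942 and 51520 in the 4B4 library. Median mitochondrial share went from 8.40% to 10.1% in the control and from 5.23% to 8.19% in the 4B4 library.

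All 5 members were at least 2-fold higher in MALAT1 class 5 than in class 1, in each library. Among all 6781 genes 28.7% were so among control cells and 36.6% among 4B4 cells, and 3.13% and 10.2% differed 2-fold in the opposite direction. These classes were known to separate the members, so the count is a description.

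LRRTM4 had the steepest dependence. In the control library it was at 3.25, 8.75, 18.3, 36.1 and 72.7 UPM from class 1 to class 5, and in the 4B4 library at 2.31, 9.13, 28.2, 50.2 and 158 UPM. Class 5 over class 1 was a log2 ratio of 4.48 (4.16 to 4.82) in the control and 6.10 (5.72 to 6.50) in the 4B4 library, at the 99.9th percentile of the 6781 genes in both. At equal depth LRRTM4 was found in 3.82% (2.44% to 5.68%) of the cells of control class 1 and 45.6% (41.6% to 49.7%) of those of class 5. In the 4B4 library these shares were 2.66% (1.08% to 5.41%) and 61.2% (54.6% to 67.6%). Between the libraries, the log2 ratio of LRRTM4 was -0.49 in class 1 and 1.12 in class 5. Class 1 had median MALAT1 shares of 0.0419% in the control and 0.0232% in the 4B4 library. In the bands of MALAT1 share given below the ratio was above 0, but in the lowest band its interval included 0.

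UNC13C was at 1.58, 3.55, 6.84, 9.46 and 11.3 UPM through the control classes and at 4.14, 11.6, 25.2, 56.6 and 76.2 UPM through the 4B4 classes. Its log2 ratios of class 5 over class 1 were 2.84 (2.35 to 3.36) and 4.202 (3.91 to 4.51). UNC13C was higher in the 4B4 library in each of the 5 classes, and the log2 ratio between the libraries went from 1.39 in class 1 to 2.75 in class 5.

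TENM3 was at 32.8, 88.5, 124, 138 and 152 UPM through the control classes and at 19.0, 37.6, 86.8, 145 and 170 UPM through the 4B4 classes. NCAM1 ran from 14.8 to 44.3 UPM in the control and from 8.92 to 41.6 UPM in the 4B4 library. Their log2 ratios of class 5 over class 1 were 2.21 and 3.16 for TENM3 and 1.58 and 2.22 for NCAM1. Both genes were higher in each successive class.

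TENM2 did not go up through all classes. In the control library it was at 33.9, 95.5, 140, 141 and 86.9 UPM through the classes, and in the 4B4 library at 6.29, 12.6, 25.6, 53.1 and 38.2 UPM. It was thus highest in class 4 of both libraries and lower in class 5, where the other members were highest. The classes also differed in cell cycle phase (phases are given below). Cells called G1 made up 75.9% of class 4 and 92.5% of class 5 in the control library. In the 4B4 library they made up 86.3% and 92.1%. The part of this in the TENM2 levels was not tested. Split more finely into 10 classes, TENM2 stood at 145 UPM in class 6 of the control library and at 77.8 UPM in class 10. In the 4B4 library it stood at 59.6 UPM in class 8 and 36.3 UPM in class 10. UNC13C was also lower at the top of the control library in this finer split, at 13.9 UPM (11.8 to 16.3) in class 9 and 8.59 UPM (6.93 to 10.5) in class 10. In the 4B4 library it was at 73.2 and 81.0 UPM there. The log2 ratios of TENM2 in class 5 over class 1, with 5 classes, were 1.36 (1.24 to 1.48) and 2.60 (2.35 to 2.86).

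**Figure D2:**
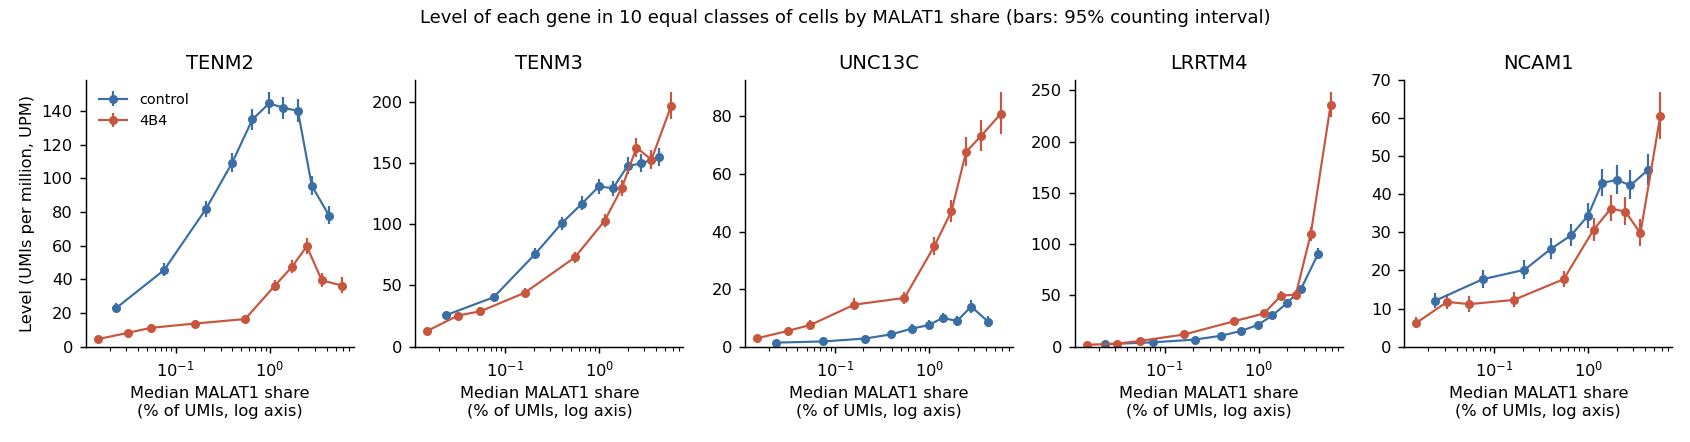
Level of each gene (y axis, UPM) in 10 equal classes of cells ordered by MALAT1 share, at the median share of each class (x axis, percent of UMIs, log scale), for the control (blue) and 4B4 (red) library. Bars are 95% counting intervals. TENM2 peaks before the MALAT1-richest cells in both libraries and UNC13C in the control library, and LRRTM4 reaches 90.6 UPM in the control and 236 UPM in the 4B4 library in the last class.

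The classes of the libraries do not cover the same MALAT1 shares, so cells were also compared within bands with the same limits in both libraries. Within a band the shares can still differ. At 4% and more they reached 13.5% in the control and 24.7% in the 4B4 library. TENM2 was lower in the 4B4 library in each of 6 bands. Its log2 ratio was -2.34 in cells with under 0.25% MALAT1 (936 control and 528 4B4 cells), -3.27 from 0.25% to 0.5%, -2.87 from 0.5% to 1%, -1.62 from 1% to 2%, -1.12 from 2% to 4% and -0.71 (-0.94 to -0.49) at 4% and more (201 and 175 cells). The difference in TENM2 between the libraries was thus widest in cells of low to middle MALAT1 share and smallest in the MALAT1-richest cells.

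UNC13C was higher in the 4B4 library in each band, with log2 ratios of 1.89, 2.00, 1.85, 2.26 and 2.33 in the first 5 and 3.86 (3.38 to 4.38) at 4% and more. In that last band it was at 6.02 UPM in the control and 87.3 UPM in the 4B4 library, against 12.7 and 63.6 UPM from 2% to 4%. TENM3 was lower in the 4B4 library in the lowest band, at -0.74 (-0.85 to -0.63), and slightly higher at 4% and more, at 0.20 (0.079 to 0.31), so its sign turned with the MALAT1 share of the cells. NCAM1 went from -0.68 (-0.86 to -0.50) to 0.18 (-0.033 to 0.40). LRRTM4 had ratios above 0 in all 6 bands, in no steady order: 0.24 (-0.072 to 0.55) in the lowest, then 0.86 (0.55 to 1.18), 0.79, 0.46 and 0.29, and 0.99 (0.86 to 1.13) at 4% and more. With the bands given the same weight in both libraries, the ratios were -1.76 for TENM2, -0.19 for TENM3, 2.44 for UNC13C, 0.63 for LRRTM4 and -0.34 for NCAM1.

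**Figure D3:**
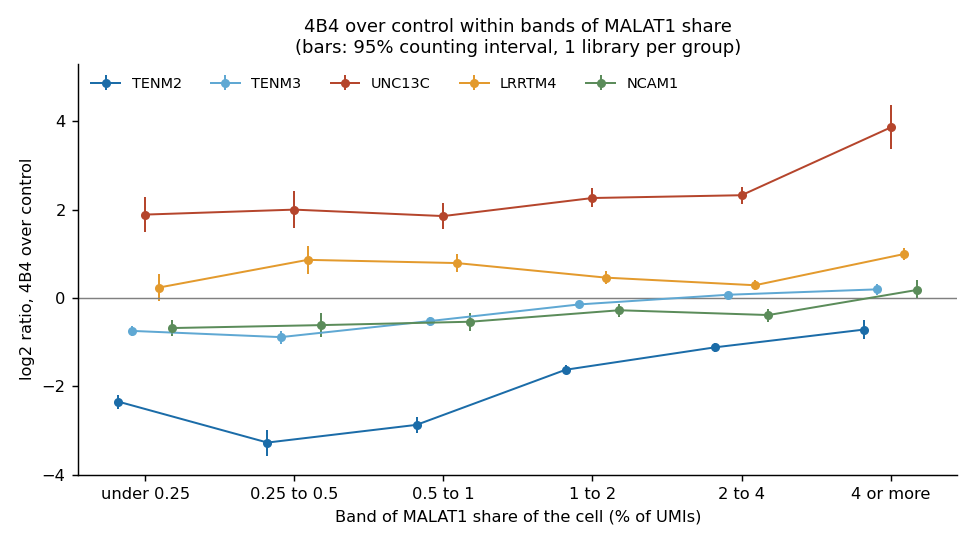
Log2 ratio of 4B4 over control (y axis) within bands of MALAT1 share of the cell (x axis, percent of UMIs), 1 line per gene, with 95% counting intervals. TENM2 stays below 0 and UNC13C above 0 in each band, and TENM3 crosses 0 between the bands from 1% to 2% and from 2% to 4%.

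Long genes as a class were higher in MALAT1-rich cells, which places the members among their peers. Over genes of 20 UPM or more, the median log2 ratio of class 5 over class 1 in the control library was -0.29 for 3880 genes spanning under 50 kb, 1.03 for 2147 genes of 50 to 200 kb, 1.93 for 607 genes of 200 to 500 kb and 2.52 for 138 genes of 500 kb or more. In the 4B4 library these medians were -0.44, 1.44, 2.73 and 3.67. A 2-fold higher level in class 5 was seen for 131 of the 138 longest genes in the control and 136 in the 4B4 library.

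Among these 138 genes LRRTM4 ranked second in the control and first in the 4B4 library by this ratio. UNC13C ranked 40th and 39th, TENM3 91st and 100th, and TENM2 123rd and 115th, so both teneurins were below the median of their span class. NCAM1, in the class of 200 to 500 kb, ranked 389th and 409th of 607. The ratio between the libraries was another matter. The 138 longest genes had a median log2 ratio of 4B4 over control of -0.11, and 3 of them passed 2-fold upward and 3 downward. By size of that ratio UNC13C was first and TENM2 second among them, LRRTM4 22nd and TENM3 53rd.

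**Figure D4:**
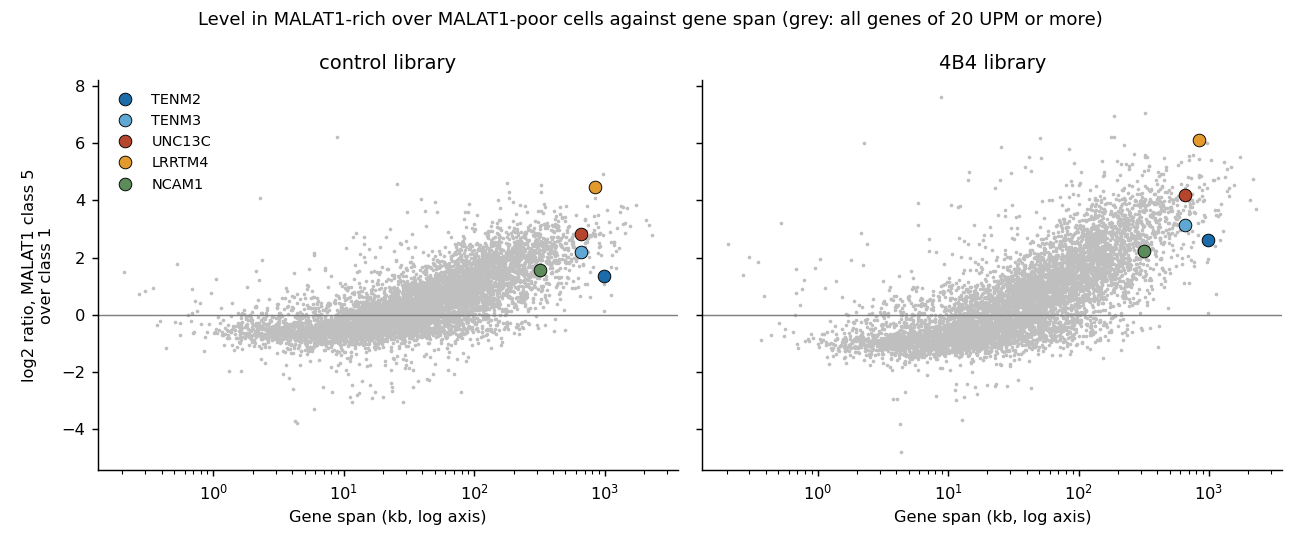
Log2 ratio of MALAT1 class 5 over class 1 (y axis) against gene span (x axis, kb, log scale) for genes of 20 UPM or more (grey) and the 5 members, in each library. LRRTM4 lies at the upper edge of the long genes, at 4.48 and 6.10, and TENM2 toward the lower edge, at 1.36 and 2.60.

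Cells of each library were also clustered alone, leaving the members and MALAT1 out of the genes used. The control library gave 3 clusters and the 4B4 library 8. Clusters are called by number, with their leading genes, and since they are made from the same cells their levels are a description.

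In the control library TENM2 was lowest in cluster 2, led by APOC1 and APOE, at 39.05 UPM. It was at 120 UPM in cluster 1, led by LINC01239 and LINC02163, and at 134 UPM (131 to 138) in cluster 3, led by the mitotic genes DLGAP5, ASPM and MKI67. TENM3 was at 42.4, 147 and 119 UPM in clusters 2, 1 and 3. LRRTM4 was at 8.87 UPM in cluster 2, 10.7 UPM in cluster 3 and 54.1 UPM in cluster 1, so it was concentrated in cluster 1. UNC13C was at 3.59, 4.12 and 10.9 UPM in clusters 2, 3 and 1, and NCAM1 at 16.8, 34.9 and 39.3 UPM. Median MALAT1 shares in clusters 2, 3 and 1 were 0.150%, 0.491% and 2.14%. In a finer clustering (resolution 0.8), TENM2 was highest in a cluster led by MDM2, at 204 UPM (196 to 212), with 89.6% of its cells in G1. The mitotic clusters led by UBE2C and by ARHGAP11B then had TENM2 at 66.5 and 175 UPM. TENM3, UNC13C and NCAM1 were not highest in the MALAT1-richest control cluster there, and LRRTM4 was.

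In the 4B4 library all 5 members were lowest in cluster 5 and highest in cluster 8. Cluster 5 held 148 cells with a median MALAT1 share of 0.0205% and a median mitochondrial share of 1.74%, led by IFITM1 and GAPDH. Cluster 8 held 29 cells with median shares of 6.69% and 14.6%, led by LINC01194 and LINC02089. TENM2 was at 2.96 UPM (2.18 to 3.94) in cluster 5 and 74.6 UPM (59.7 to 92.1) in cluster 8, UNC13C at 2.08 (1.43 to 2.92) and 101 UPM (83.9 to 122), and LRRTM4 at 4.35 (3.39 to 5.51) and 276 UPM (246 to 308).

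Clusters 3 and 4 of the 4B4 library had nearly the same LRRTM4, 88.6 UPM (84.6 to 92.8) and 89.7 UPM (85.5 to 94.1), yet differed in UNC13C and TENM2. UNC13C was at 88.6 UPM in cluster 3, led by HS6ST3, NOX4 and MIR31HG, and at 25.2 UPM in cluster 4, led by HAS2 and RANBP3L. TENM2 was at 63.0 UPM in cluster 3 and 19.97 UPM in cluster 4. The median MALAT1 shares of these clusters were 2.72% and 1.93%. Cluster 6, led by ASPM and MKI67, had TENM2 at 53.3 UPM and NCAM1 at 46.3 UPM with LRRTM4 at 9.32 UPM, so a mitotic cluster with TENM2 and little LRRTM4 was present in both libraries. In the finer clustering the clusters led by HS6ST3 and by HAS2 differed in LRRTM4, at 110 UPM (106 to 115) and 72.3 UPM (68.2 to 76.7). They still differed in UNC13C, at 86.5 and 19.2 UPM, and in TENM2, at 60.9 and 18.7 UPM. The likeness in LRRTM4 thus depended on the clustering.

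**Figure D5:**
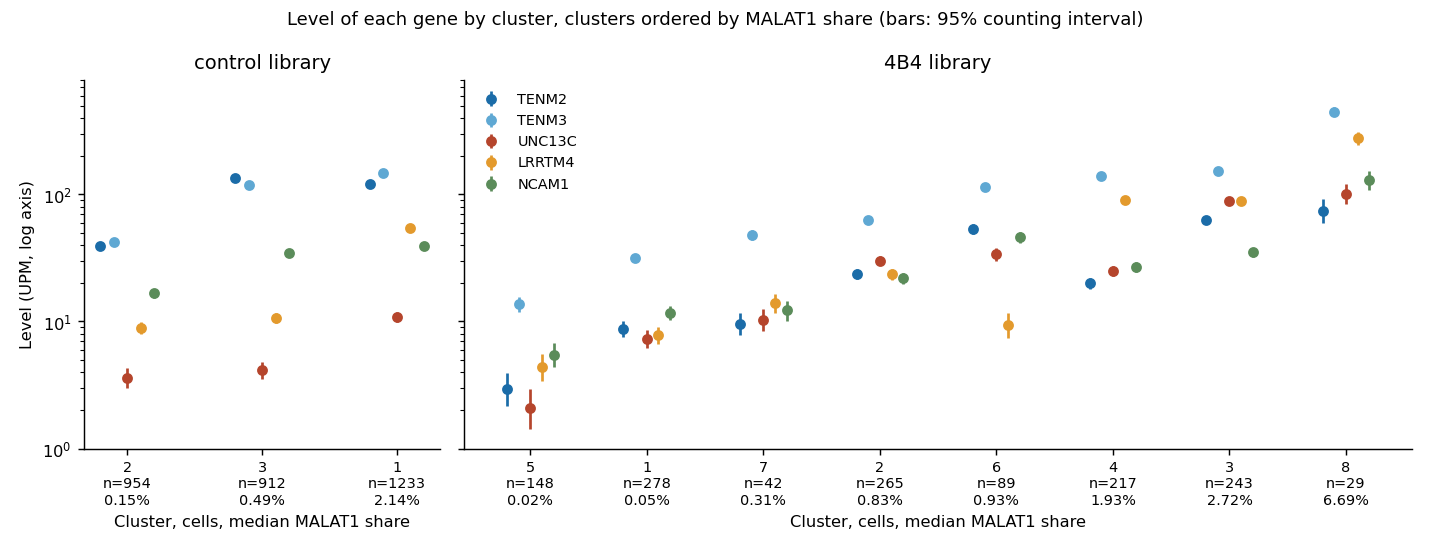
Level of each gene (y axis, UPM, log scale) in the clusters of each library, ordered by median MALAT1 share, with the number of cells under each cluster and 95% counting intervals. The members are lowest in the MALAT1-poorest cluster of each library, and LRRTM4 is low in the mitotic clusters, at 10.7 UPM in cluster 3 of the control and 9.32 UPM in cluster 6 of the 4B4 library.

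Cell cycle phases, called from S and G2M genes, put 11.96% and 19.2% of control cells in S and G2M and 5.78% and 7.00% of 4B4 cells. TENM2 was highest in S cells of both libraries, at 143 UPM (137 to 149) in the control and 62.7 UPM (56.3 to 69.7) in the 4B4 library, against 85.6 and 23.1 UPM in G1 cells. Its log2 ratio between the libraries was -1.89 in G1, -1.19 in S and -1.76 in G2M cells. TENM3 followed the same order, with 134 and 142 UPM in S and 98.9 and 79.8 UPM in G1 cells. LRRTM4 went the other way, at 34.5 UPM in G1 and 10.6 UPM in G2M cells of the control library and at 44.0 and 23.9 UPM in the 4B4 library. In S cells LRRTM4 was at 16.1 UPM in the control and 15.1 UPM (12.0 to 18.7) in the 4B4 library. UNC13C was at 7.74 UPM in G1 and 3.78 UPM in G2M cells of the control library and at 31.7 and 30.9 UPM in the 4B4 library. In S cells UNC13C was at 4.86 UPM in the control and 18.9 UPM (15.5 to 22.9) in the 4B4 library. NCAM1 was at 28.6 and 34.8 UPM in the control and at 20.6 and 41.2 UPM in the 4B4 library. The log2 ratio of NCAM1 between the libraries was -0.48 in G1 and 0.24 (0.072 to 0.41) in G2M cells, so its sign turned. In S cells the intervals of this ratio included 0 for TENM3, LRRTM4 and NCAM1. Over G1 cells alone LRRTM4 had a ratio of 0.35, below 1.5-fold, and the S and G2M values of the 4B4 library rest on 80 and 97 cells. Control G1 cells had a median MALAT1 share of 1.12% and G2M cells 0.445%, and the part of this in the phase differences was not tested.

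Members were found together in a cell slightly more often than the product of their shares. Over the 10 pairs the ratio of observed to product was 1.01 to 1.49 in the control and 1.19 to 1.37 in the 4B4 library, at equal depth. When the product was taken within the 5 MALAT1 classes, the ratio was 0.931 to 1.17 and 0.999 to 1.11. UNC13C and LRRTM4 had the highest ratio in the control library, 1.49, which became 1.17 within classes, and in the 4B4 library theirs went from 1.37 to 1.00. No member was found in 10.7% of control cells and 21.5% of 4B4 cells, and all 5 were found in 16 and 9 cells.

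Across the 20 points formed by 10 MALAT1 classes in each of the 2 libraries, the genes most like each member were sought by Pearson's r of log2(UPM + 1). The points of a library share depth and preparation, and r is given as a description. Over all genes searched, the median r was 0.40 with TENM2, 0.58 with TENM3, 0.42 with UNC13C, 0.52 with LRRTM4 and 0.55 with NCAM1. The genes named next are the highest of all those searched, so a high r is partly due to that choice. TENM2 was most like MYLK (r = 0.992), the myosin light chain kinase, WWC1 (0.982), a Hippo pathway scaffold, and EHD4 (0.980), an endocytic ATPase. Their log2 ratios of 4B4 over control were -1.18, -1.10 and -1.04. UNC13C was most like ANKH (0.987), a pyrophosphate transporter, ME1 (0.977), the cytosolic malic enzyme, and RAB31 (0.970), with ratios of 0.74, 0.90 and 0.49. TENM3 was most like MAP4K5, GALNT10 and DOCK1 (each 0.996), LRRTM4 like MKLN1 (0.993), AL049828.1 and AOPEP (both 0.990), and NCAM1 like EML4 (0.985), DAAM1 (0.983) and GLI3 (0.979). Between members r was highest for TENM3 and NCAM1, at 0.962, and lowest for TENM2 and UNC13C, at 0.063. With MALAT1 itself r was 0.971 for TENM3, 0.968 for LRRTM4, 0.938 for NCAM1, 0.731 for UNC13C and 0.653 for TENM2. The points are classes of MALAT1 share, so these values restate the dependence described above.

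Relatives and partners of the members were looked up in lists, and most measured genes of each list were neither higher nor lower. They numbered 6 of 9 for teneurins and partners, 17 of 18 for vesicle release, 13 of 17 for synaptic organizers and 11 of 12 for adhesion. A gene counted as measured at 5 UPM in either library, and as higher or lower at 1.5-fold with its counting interval on that side of 1. Of all 11359 genes measured so, 2.10% were higher and 5.82% lower, with a median log2 ratio of -0.0089. The lists include the members themselves, which were picked on this contrast, so nothing is read from the counts.

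Of 14 teneurins, latrophilins, FLRT proteins and UNC5 receptors, 9 were measured, with a median log2 ratio of 0.068. TENM2 and ADGRL3 were lower and UNC5B was higher. ADGRL3, a latrophilin that binds teneurins, was at 5.17 UPM (4.78 to 5.58) in the control and 2.77 UPM (2.47 to 3.08) in the 4B4 library. UNC5B, a netrin receptor, was at 5.49 UPM (5.09 to 5.92) and 11.2 UPM (10.6 to 11.8). The other teneurins were not lower with TENM2 at this threshold. TENM4 was at 81.1 and 108 UPM, a log2 ratio of 0.41, and TENM1 at 6.41 and 7.78 UPM, 0.28. ADGRL2 was at 32.0 and 32.3 UPM.

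Of 36 genes of the UNC13 family and vesicle release, 18 were measured, with a median of 0.097. UNC13C was higher, none was lower and 17 were neither. Its paralogues UNC13B, at 9.88 and 8.74 UPM, and UNC13D, at 8.93 and 8.25 UPM, had ratios of -0.18 and -0.11, and UNC13A was under 1 UPM in both libraries. Genes of the fusion machinery were present at like levels, among them VAMP2 at 43.9 and 46.9 UPM and SNAP23 at 23.2 and 25.9 UPM. ERC1, an active zone scaffold also found outside neurons, was at 123 and 121 UPM, and RAB27A, which tethers secretory vesicles, at 54.1 and 58.4 UPM. PPFIA1, a liprin scaffold, was at 44.9 and 47.9 UPM.

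Of 46 LRRTM genes and other synaptic organizers, 17 were measured, with a median of 0.017. LRRTM4 was higher, and NRXN3, IL1RAPL1 and IL1RAP were lower. NRXN3, a neurexin, was at 18.3 UPM (17.6 to 19.1) and 10.9 UPM (10.3 to 11.5), a log2 ratio of -0.75, and IL1RAPL1 had -1.40 and IL1RAP -0.65. LRRTM1 had no UMI in either library, which with a limit of 3 counts allows up to 0.0236 UPM in the control and 0.0258 UPM in the 4B4 library. LRRTM2 and LRRTM3 were under 1 UPM in both. PTPRD, a presynaptic receptor phosphatase, was at 57.4 and 58.1 UPM, CADM1 at 43.9 and 32.7 UPM and PTPRF at 38.9 and 38.5 UPM.

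Of 29 genes of NCAM and immunoglobulin-type adhesion, 12 were measured, with a median of -0.12. NTM, a GPI-anchored neurotrimin, was lower, at 146 UPM (144 to 148) and 74.7 UPM (73.1 to 76.3), and none was higher. NCAM2 was under 1 UPM in both libraries, as were ST8SIA2 and ST8SIA4, which add polysialic acid to NCAM1. ALCAM was at 61.7 and 46.4 UPM, LSAMP at 54.0 and 76.7 UPM, MCAM at 52.6 and 55.8 UPM, and FGFR1, a receptor that NCAM1 meets, at 25.5 and 18.2 UPM.

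Among measured genes of the lists, members included, those at least 2-fold higher in MALAT1 class 5 than in class 1 numbered 7 of 9 for teneurins and partners, 9 of 18 for vesicle release, 8 of 17 for synaptic organizers and 10 of 12 for adhesion in the control library. In the 4B4 library they numbered 7, 11, 10 and 10. Over all genes at the higher floor of 20 UPM, 28.7% were so in the control and 36.6% in the 4B4 library. By span these shares were 5.13% and 9.54% under 50 kb, 83.5% and 90.4% from 200 to 500 kb, and 94.9% and 98.6% at 500 kb or more. The lists hold many long genes, so nothing is read from their counts. ROBO2, an axon guidance receptor spanning 1743 kb, had log2 ratios of class 5 over class 1 of 3.86 and 5.51, and SYT1 3.43 and 4.93. TENM1 had 3.50 and 5.13 and TENM4 2.75 and 3.55, above TENM2 in both libraries. The short UNC13D, spanning 17.5 kb, had -0.48 and -0.44.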

How the data were processed

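Single-cell RNA was measured in 2 libraries of HT1080 spheroids, with 10x Genomics 3′ chemistry, version 3, per the labels' protocols. Per the file headers, Cell Ranger 7.1.0 produced the deposited values, unnormalized UMI counts for each barcode and gene. GRCh38 and Seurat 5.0.1 are named in the submitters' processing notes. Neither source used here gives the annotation or the use of intronic reads.

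The cell filter required 1000 genes and allowed 20% mitochondrial UMIs. Levels are summed UMIs per 1000000 (UPM), with exact Poisson, Clopper-Pearson or conditional binomial 95% intervals, which cover counting error only. With 1 library per group no test was run. The doublet caller marked 0 and 2 barcodes, too few to be usable, and none was removed. Cells were clustered with scanpy 1.11.5 and leidenalg 0.10.2 (2000 variable genes, 30 components, 15 neighbours, resolution 0.5). Phases came from 43 S and 54 G2M genes. Alternatives included edgeR 4.0.16's TMM scaling. Gene spans came from GENCODE 29, which matched 94.6% of gene IDs. The interval code was run on simulated counts with Poisson error only. These lack the extra variation between cells seen for the members, so the run cannot show how the intervals hold for these data.

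The members and lists were chosen with earlier results of these data known. From each list, measured genes past 1.5-fold (at most 4) and up to 3 others by level were named, and for each member the 3 genes most like it. Paralogues, genes under 5 UPM, VAMP2, SNAP23, FGFR1, SYT1 and ROBO2 were named outside this rule, after their values were seen.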

Additional observations from a re-analysis of the deposited data

Results flagged for a closer look

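Levels of the members were also taken in the barcodes left out by the cell filter, 240 in the control and 374 in the 4B4 library. No background over all genes was taken in these barcodes, so the levels are a description. TENM3 was at 229 UPM (213 to 247) in the 4B4 barcodes left out and at 104 UPM (85.9 to 124) in those of the control. UNC13C was at 99.2 UPM (88.4 to 111) and 10.4 UPM (5.36 to 18.1), and LRRTM4 at 119 UPM (107 to 132) and 31.1 UPM (21.8 to 43.0). Each of these levels in the 4B4 barcodes was also above that in the kept 4B4 cells. NCAM1 was at 40.4 UPM (33.7 to 48.1) and 32.0 UPM (22.5 to 44.0), intervals that overlapped, where kept cells had the opposite order, 22.9 and 31.0 UPM. TENM2, at 37.9 UPM in the 4B4 and 65.6 UPM in the control barcodes, kept its order between the libraries. The barcodes had median mitochondrial shares of 82.7% in the 4B4 and 92.4% in the control library, and the part of this in the levels was not tested.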

How the results depend on the processing

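No log2 ratio between the libraries changed sign in 60 recomputed values, of which 35 moved by more than the counting interval. Ratios in S or G2M cells alone and in single bands of MALAT1 share, where the signs of some members turned (above), are not among these values. With a stricter cell filter the ratios were -2.06 for TENM2, -0.45 for TENM3, 0.78 for LRRTM4 and -0.51 for NCAM1. Among cells of 20000 to 60000 UMIs they were -1.73, -0.20 and 0.78 for TENM2, TENM3 and LRRTM4. In G1 cells TENM2 had -1.89, UNC13C 2.03 and LRRTM4 0.35. With each cell weighing the same, the values for TENM2, TENM3, UNC13C, LRRTM4 and NCAM1 were -1.74, -0.18, 2.53, 0.79 and -0.28, and with phases at the same weight -1.75, -0.22, 2.13, 0.38 and -0.30. In thinned cells TENM2, TENM3, UNC13C and NCAM1 had -1.81, -0.18, 2.43 and -0.30, and with bands of MALAT1 share at the same weight -1.76, -0.19, 2.44 and -0.34. Without the 1% of cells holding the most, TENM2 had -2.11 and UNC13C 2.49. TENM3 had -0.26 with no cell filter, where LRRTM4 had 0.71, and -0.27 with TMM, -0.28 with median-of-ratios scaling and -0.36 against a total without mitochondrial genes and MALAT1. The cause of these moves was not tested.

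The log2 ratio of highest over lowest MALAT1 share kept its sign in 40 recomputed values. With 10 in place of 5 classes of cells, the control and 4B4 values were 1.76 and 3.03 for TENM2, 2.59 and 3.93 for TENM3, 5.24 and 7.04 for LRRTM4 and 1.95 and 3.28 for NCAM1. UNC13C had 4.81 in the 4B4 library. In the control library it had 2.63, below the 2.84 with 5 classes. With the stricter filter TENM2 and UNC13C had 1.70 and 3.59 in the control library, and over G1 cells TENM2 and TENM3 had 1.67 and 2.44 there. In thinned cells TENM2, LRRTM4 and NCAM1 had 2.27, 6.73 and 2.47 in the 4B4 library and TENM3 2.09 in the control. The number of genes at least 2-fold higher went from 22 to 43 with a floor of 5 UPM and to 1341 with 1 UMI in each library, and the number lower from 114 to 250 and 2556. The highest over the lowest cluster level depended on the clustering, from 8.48 to 25.5-fold for TENM2 and from 12.6 to 48.8-fold for UNC13C in the 4B4 library. No paired analysis was possible because each group is 1 library.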
